A study of Mus musculus with 12 samples.

Results

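Trim71, the chemokine receptor gene Ccr4 that lies just downstream of it, and the Trim71 paralogs Trim2, Trim3 and Trim32 were described in mouse embryonic stem cells that differed in Trim71 genotype and in overexpression of Tnrc6a. The members were found by gene symbol in the deposited table, where 5 of 20529 listed genes matched, and all 5 passed the filter on low counts, as did 20486 genes in all. Ccr4 was picked from its difference between Trim71-/- and control libraries in these same data, so its genotype values are given as a description with no test. Trim71 is the gene named in the genotype label, and Trim2, Trim3 and Trim32 were taken by family.

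Total RNA was sequenced from 12 libraries in 4 groups of 3: Trim71-/- cells overexpressing Tnrc6a, control cells overexpressing Tnrc6a, Trim71-/- cells with Cas9 alone and control cells with Cas9 alone. All cells were 129S6/SvEvTac embryonic stem cells that carry the reporter GFP_5xT71BS and, by stable transfection, FLAG-Cas9::T2A::Blasticidin, grown on gelatin in serum and LIF. Replicates were wells of a culture dish, so p-values measure the spread between wells, and nothing in the labels says how many clones the Trim71-/- cells stand for. The input lines of 9 of the 12 libraries name other cells (HA-AVI-Tnrc6a, with Ago2-/- or Upf1-/- in 6 of them), so the groups rest on the titles and the overexpression tag. Tnrc6a RNA followed the titles: it averaged 3622 ± 126 CPM in Tnrc6a Trim71-/- libraries, 3317 ± 120 CPM in Tnrc6a control libraries, 144.5 ± 9.79 CPM in Cas9 Trim71-/- libraries and 132 ± 1.31 CPM in Cas9 control libraries (SD, n = 3 each). CPM here is reads per 1000000 of the library total after scaling by the trimmed mean of M values. Library totals lay between 20758151 and 31552915 counts. All 10 pluripotency markers were listed, with a summed level of 5056 to 5152 CPM in Tnrc6a Trim71-/-, 3546 to 3599 CPM in Tnrc6a control, 6926 to 7005 CPM in Cas9 Trim71-/- and 6092 to 6151 CPM in Cas9 control libraries. In Trim71-/- cells 7 were called higher and 3 lower with Tnrc6a (edgeR adjusted p under 0.05), where 20.0% and 19.0% of all genes were. With Cas9, 6 were called higher and 3 lower, where 17.1% and 19.1% were. Zfp42, on chromosome 8, differed most in CPM, at 967 against 417.1 with Tnrc6a and 1157 against 644.4 with Cas9. Called lower with Tnrc6a than with Cas9 were 8 in Trim71-/- and 10 in control cells, where 30.9% and 33.1% of all genes were. Markers of primitive endoderm, 6 of 6 listed, moved with genotype, with a sum of 24.0 to 28.6 CPM in Tnrc6a Trim71-/- against 151.7 to 160.1 CPM in Tnrc6a control libraries, and 11.9 to 14.1 CPM in Cas9 Trim71-/- against 70.9 to 75.7 CPM in Cas9 control libraries. The sum of neural markers, 5 of 6 listed, also differed with genotype, at 193.2 to 199.1 CPM in Tnrc6a Trim71-/- against 149.4 to 152.5 CPM in Tnrc6a control libraries. With Cas9 it was 159.6 to 175 CPM in Trim71-/- against 137 to 139.4 CPM in control libraries. Most of it was Tubb3, at 144.6 against 100.7 CPM with Tnrc6a and 133.9 against 106.2 CPM with Cas9. In Trim71-/- cells 2 of the 5 were called higher and 1 lower with Tnrc6a, and 2 higher and 2 lower with Cas9, beside the shares of all genes given above. Tubb3 and Sox1, called higher in both constructs, lie on chromosome 8. The median log2 genotype change over its genes of at least 5 CPM was 0.515 with Tnrc6a and 0.494 with Cas9. With Tnrc6a against Cas9, the endoderm sums were higher in both genotypes, and so were those of the 4 of 7 fibroblast markers listed, at 27.2 to 30.4 CPM in Tnrc6a Trim71-/- against 18.6 to 19.96 CPM in Cas9 Trim71-/- libraries, and 25.9 to 28.6 CPM in Tnrc6a control against 14.7 to 19.2 CPM in Cas9 control libraries. Of the 6 endoderm markers, 5 were called higher and 1 lower in Trim71-/- cells, where 32.0% and 30.9% of all genes were. The one called lower was Sox7, at 1.85 CPM with Tnrc6a against 2.93 CPM with Cas9. In control cells all 6 were called higher, where 30.4% of all genes were. The part of these markers in the results below was not tested, and in bulk RNA fewer cells of a type and less RNA per cell cannot be told apart.

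TRIM proteins share a RING finger, B-boxes and a coiled coil, and the subgroup described here ends in an NHL repeat domain, a propeller that in TRIM71 binds hairpins in messenger RNAs and brings about their silencing. Trim71, the mouse ortholog of the worm gene lin-41, is a classic target of the microRNA let-7: it is high in stem cells and is repressed as let-7 appears during differentiation. Trim2 and Trim3 encode ubiquitin ligases best known from neurons, and Trim32 encodes a ubiquitin ligase known from muscle and from neural progenitors. Tnrc6a, also called GW182, is the scaffold that links Argonaute to the CCR4-NOT deadenylase. Ccr4, in contrast, encodes the G protein-coupled receptor for the chemokines CCL17 and CCL22, found on helper and regulatory T cells, and shares only its name with the deadenylase.

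Because Tnrc6a acts with microRNAs, seed matches in the 3′ UTRs of the 5 genes are shown first. The mature sequences below are from RefSeq (GRCm38.p6), with the seed, bases 2 to 8, in capitals. The let-7a seed is shared by 11 mature mouse microRNAs in that table, the miR-294 seed by 5 and the miR-17 seed by 7. The miR-294 and miR-17 seeds belong to microRNAs known to be abundant in embryonic stem cells, and they overlap by all but 1 base.

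let-7a-5p: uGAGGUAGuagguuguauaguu
miR-294-3p: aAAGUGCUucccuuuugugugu
miR-17-5p: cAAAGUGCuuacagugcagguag

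The longest GENCODE M21 Trim71 3′ UTR, read from the reference and not from the 129 strain, has 5512 bases and held 4 matches to the let-7 seed (CTACCTC, transcript strand only). Among 835 3′ UTRs of like length (4410 to 6888 bases), 29.9% held at least 1 such match and 4, Trim71 included, held as many as 4. Over all 21021 3′ UTRs the share with a match was 9.02%. The 4 sites are printed as 23 bases each, read 5′ to 3′ on the minus strand of chromosome 9, with the match in capitals. Each is followed by an A, the base known to favour repression opposite the first microRNA base.

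Trim71, chr9:114512472-114512494: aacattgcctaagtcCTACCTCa
Trim71, chr9:114512376-114512398: agtgataatttctatCTACCTCa
Trim71, chr9:114509047-114509069: tttagtatggattttCTACCTCa
Trim71, chr9:114509021-114509043: ttggcaaaaagttgtCTACCTCa

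The sites came in 2 pairs, at bases 166 and 262 and at bases 3591 and 3617 after the stop codon. No let-7 match was found in the longest 3′ UTR of Ccr4 (1597 bases), Trim2 (4658 bases), Trim3 (588 bases) or Trim32 (1063 bases). The miR-294 match (AGCACTT) occurred once in Trim71 and once in Trim2, where 50.4% and 44.4% of 3′ UTRs of like length held 1. The miR-17 match (GCACTTT) occurred once in Trim71, on the same stretch as the miR-294 match, and once in Trim3, where 38.6% and 5.39% of 3′ UTRs of like length held 1. A match is a description of the sequence and shows no binding.

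Trim71, chr9:114510081-114510103, miR-294 match: ggggaattggtgctaAGCACTTt
Trim2, chr3:84160952-84160974, miR-294 match: ttccaatgaatgtacAGCACTTc
Trim3, chr7:105610893-105610915, miR-17 match: cccaaccccacggttGCACTTTa

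**Figure D1:**
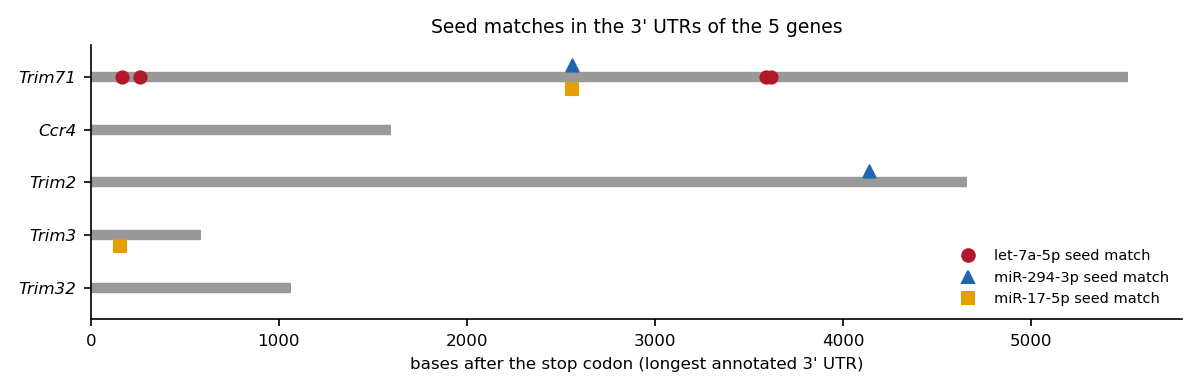
Positions of seed matches along the longest annotated 3′ UTR of each gene; the horizontal axis gives bases after the stop codon, grey bars the 3′ UTR, and circles, triangles and squares the matches to let-7a, miR-294 and miR-17. The 4 let-7 matches lie in Trim71 alone, among these 5 genes.

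Trim71 RNA was lower in Trim71-/- cells, but only 1.11-fold with Cas9 and 1.1-fold with Tnrc6a. Trim71 (ENSMUSG00000079259, chr9:114507133-114564369, minus strand of GRCm38) had 264, 270.1 and 291 CPM in Cas9 Trim71-/- libraries, against 290.1, 311 and 317 CPM in Cas9 control libraries, and the highest Trim71-/- library overlapped the lowest control. With Tnrc6a it had 238, 233 and 251 CPM in Trim71-/- libraries against 255, 261 and 277 CPM in control libraries, with no overlap. The log2 fold change was -0.15 ± 0.04 (SE; edgeR quasi-likelihood adjusted p = 0.00282) with Cas9 and -0.14 ± 0.04 (adjusted p = 0.00758) with Tnrc6a. The second call was lost without Tnrc6a control replicate 3 (-0.10, adjusted p = 0.0789). The genotype effect did not pass the test of a difference between Tnrc6a and Cas9 cells (difference of log2 fold changes 0.02, 95% interval -0.10 to 0.14, adjusted p = 0.91). A count summed over the gene cannot show whether part of the RNA is missing or altered, so these values do not check the knockout label.

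After scaling, Tnrc6a overexpression also went with less Trim71 RNA, by about as much. Trim71 fell by 0.19 on the log2 scale in Trim71-/- cells (SE 0.04, adjusted p = 9.04e-05) and by 0.21 in control cells (SE 0.04, adjusted p = 2.21e-05), and in both genotypes the libraries did not overlap in CPM. As an unscaled percent of counts they did overlap. In Trim71-/- cells it was 0.02428 to 0.02616 with Tnrc6a against 0.02496 to 0.02721 with Cas9. In control cells it was 0.02741 to 0.02948 against 0.02764 to 0.0302. The scaling factors were 1.041 to 1.077 in Tnrc6a and 0.9344 to 0.953 in Cas9 libraries, so the size of this small fall depends on the scaling. The Tnrc6a control libraries, at 255 to 277 CPM, overlapped the Cas9 Trim71-/- libraries.

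**Figure D2:**
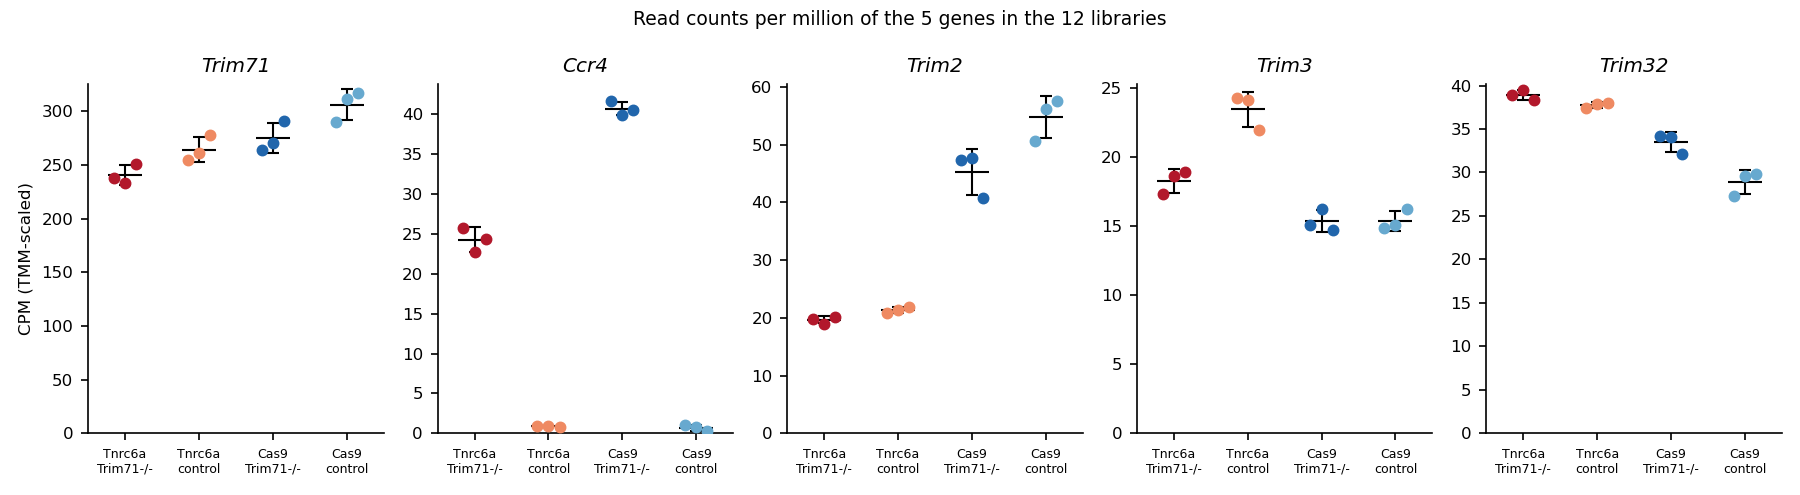
Level of each gene in the 12 libraries (vertical axes, CPM, each starting at 0) by group on the horizontal axis; points are libraries, and the horizontal mark with its bar is the mean and SD of 3 libraries. Ccr4 stands near 0 in both control groups and above 20 CPM in every Trim71-/- library, while Trim71 keeps over 230 CPM in all 12.

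Ccr4 was close to absent in control cells and was readily counted in all 6 Trim71-/- libraries. Ccr4 (ENSMUSG00000047898, chr9:114490316-114504916, minus strand) had 1242, 966 and 879 reads in Cas9 Trim71-/- libraries, against 26, 16 and 8 reads in Cas9 control libraries. With Tnrc6a it had 715, 617 and 618 reads in Trim71-/- libraries, against 28, 25 and 24 reads in control libraries. Scaled for depth, it averaged 40.7 ± 0.868 CPM in Cas9 Trim71-/- and 0.706 ± 0.356 CPM in Cas9 control libraries, and 24.3 ± 1.54 CPM in Tnrc6a Trim71-/- and 0.89 ± 0.0893 CPM in Tnrc6a control libraries (SD, n = 3 each). The groups were far apart in both constructs. The log2 fold change was 5.86 with Cas9, a 58-fold difference that ranked 5 by size among the 20486 genes, and 4.77 with Tnrc6a, a 27.2-fold difference that ranked 14. Leaving out Cas9 control replicate 3, the library with 8 reads, or any other single library kept the Cas9 value between 5.47 and 6.26.

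The contrast of Tnrc6a with Cas9 is not the one Ccr4 was picked from, but it shares its libraries with the genotype contrasts, and earlier results of these data were known. In Trim71-/- cells Ccr4 was lower with Tnrc6a, at 25.8, 22.7 and 24.4 CPM, than with Cas9, at 41.6, 39.95 and 40.5 CPM. All 3 Tnrc6a libraries lay below all 3 Cas9 libraries, and Ccr4 fell by 0.75 on the log2 scale (SE 0.08, adjusted p = 3.64e-11), a 1.68-fold reduction. In control cells the difference did not pass the test (0.35, 95% interval -0.21 to 0.91, adjusted p = 0.28). With 8 to 28 reads a library there, this value rested on single libraries: it was 0.75 (adjusted p = 0.0471) without Cas9 control replicate 1 and -0.045 without Cas9 control replicate 3. The difference between the genotypes in the Tnrc6a effect was -1.09 on the log2 scale, a value built from the contrasts that chose the gene and given without a test.

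Levels of the 2 neighbours were compared per length, as the ratio of deposited RPKM values (reads scaled to library size and to gene length) within each library. Ccr4 stood at 32.8, 29.4 and 29.3% of Trim71 in Tnrc6a Trim71-/- libraries, at 1.15, 1.04 and 0.866% in Tnrc6a control libraries, at 47.6, 44.6 and 42.0% in Cas9 Trim71-/- libraries and at 1.04, 0.785 and 0.294% in Cas9 control libraries. Within Trim71-/- cells the ratio averaged 0.305 ± 0.02 with Tnrc6a and 0.447 ± 0.028 with Cas9 (SD, n = 3 each), and all 3 Tnrc6a libraries lay below all 3 Cas9 libraries. The exact two-sided permutation test gave p = 0.1, the smallest that 3 against 3 libraries allow.

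Both genes are read from the minus strand, with Ccr4 downstream. The annotated end of Trim71 and the farthest annotated Ccr4 start are 2216 bases apart, and 1 of 3 Ccr4 transcripts begins there. No exon of Ccr4 overlaps another annotated gene. Trim71 shares 135 exon bases with C130032M10Rik on the opposite strand, and whether reads were assigned by strand is not given in the sources used here, so those reads cannot be assigned with certainty. Gene counts do not show which Ccr4 start is used, nor whether a read comes from RNA that continues past the end of Trim71. The RefSeq promoter windows of the pair (GRCm38.p6, 250 bases before to 50 after the annotated start) are printed to show how different they are, with CG dinucleotides in capitals. The Ccr4 window is not at its farthest start but at that of another transcript.

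Trim71, chr9:114564320-114564619, minus strand: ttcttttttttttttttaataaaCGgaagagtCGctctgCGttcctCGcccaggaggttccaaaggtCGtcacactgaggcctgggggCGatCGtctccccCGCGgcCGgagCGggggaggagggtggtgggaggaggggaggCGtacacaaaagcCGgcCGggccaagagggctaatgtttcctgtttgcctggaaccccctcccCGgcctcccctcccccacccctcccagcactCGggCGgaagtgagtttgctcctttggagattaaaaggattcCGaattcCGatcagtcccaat
Ccr4, chr9:114496495-114496794, minus strand: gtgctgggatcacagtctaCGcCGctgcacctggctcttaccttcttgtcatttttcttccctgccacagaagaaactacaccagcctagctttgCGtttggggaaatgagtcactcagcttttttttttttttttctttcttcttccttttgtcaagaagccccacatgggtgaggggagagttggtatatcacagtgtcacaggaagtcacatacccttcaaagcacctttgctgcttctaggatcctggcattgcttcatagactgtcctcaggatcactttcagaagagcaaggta

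The Trim71 window held 19 CG dinucleotides and 59.3% G and C, and 71.9% of 32851 RefSeq promoter windows held fewer CG. The Ccr4 window held 3 CG and 46.3% G and C, and 23.3% of windows held fewer CG. Neither held TATAAA on either strand, which 13.6% of all windows do.

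Other genes around the pair did not share the size of the Ccr4 difference. Within 1 Mb of Trim71, 41 other genes are annotated and 24 were tested. With Tnrc6a, 6 of these were called higher and 5 lower in Trim71-/- cells, where 20.0% of all genes were called higher and 19.0% lower, with a median log2 fold change of 0.02 against 0.00 over all genes tested. With Cas9, 6 were called higher and 7 lower, where 17.1% and 19.1% of all genes were, with a median of -0.06 against -0.01. The genes next to the pair moved little. Glb1, which encodes lysosomal beta-galactosidase and lies 15418 bases beyond Ccr4, fell by 0.24 with Tnrc6a (adjusted p = 0.000419) and by 0.28 with Cas9 (adjusted p = 0.000114). Tmppe, whose gene lies within the span of Glb1, fell by 0.29 with Tnrc6a (adjusted p = 0.000693). Its value of -0.21 with Cas9 (adjusted p = 0.034) was not called in 7 of the 12 fits that leave out 1 library. Nor was it called in the fit of only the groups compared (-0.21, adjusted p = 0.0741). Crtap, for a protein that modifies collagen, was at 0.07 with Tnrc6a (adjusted p = 0.355) and at 0.19 with Cas9 (adjusted p = 0.00683), a call lost without Cas9 Trim71-/- replicate 3 (0.14) or Cas9 control replicate 2 (0.15). On the Trim71 side, Cnot10, a subunit of CCR4-NOT, was at -0.09 with Tnrc6a (adjusted p = 0.109) and -0.02 with Cas9 (adjusted p = 0.816). With Tnrc6a it was called under relative log expression factors (-0.11, adjusted p = 0.0305) and with DESeq2 (-0.11, adjusted p = 0.0356). It was also called there without Tnrc6a Trim71-/- replicate 2 (-0.14, adjusted p = 0.0172). Gm7780, at a mean of 0.759 CPM, passed neither test (adjusted p = 1 and 0.692). Dync1li1, a dynein subunit, fell by 0.15 with Tnrc6a (adjusted p = 0.00312) and by 0.29 with Cas9 (adjusted p = 2.32e-07). The largest change among called neighbours with a mean of at least 1 CPM was 0.82 (Gm9888) with Tnrc6a and 0.89 (Cmtm8) with Cas9, where the Cmtm8 call was lost without Cas9 Trim71-/- replicate 1 (0.87) or Cas9 control replicate 1 (0.79) and with limma-voom (0.88), and that of Gm9888, 0.69, without Cas9 Trim71-/- replicate 2 (0.51). The median over chromosome 9 genes of at least 5 CPM was 0.01 with Tnrc6a and 0.00 with Cas9.

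**Figure D3:**
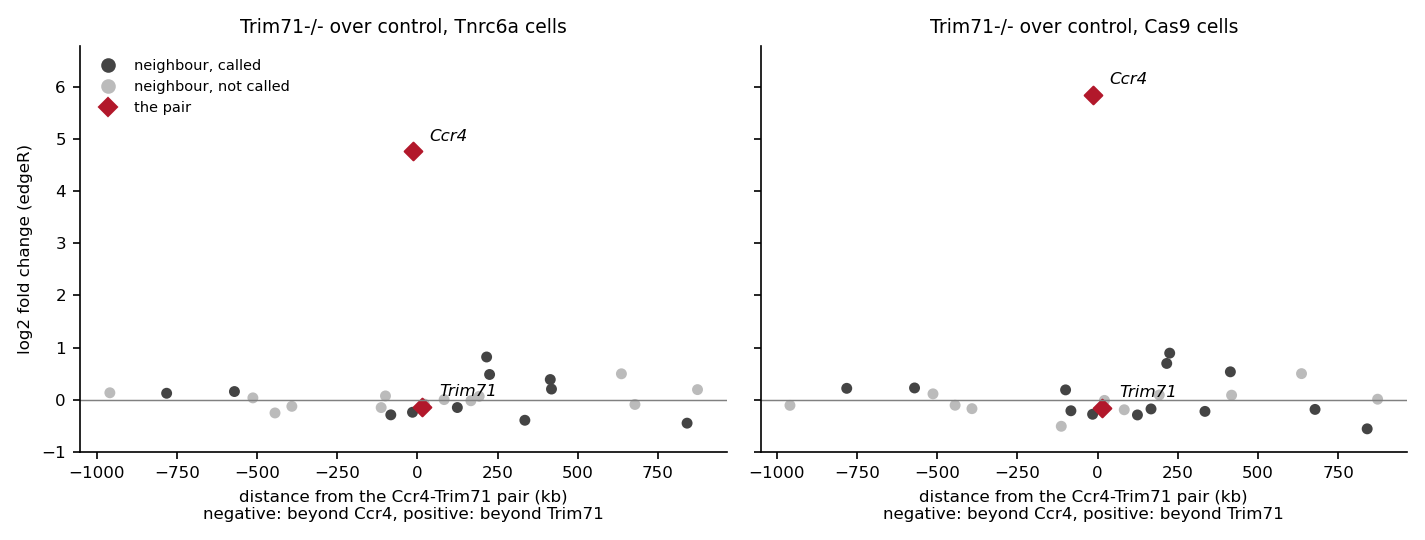
Log2 fold change of Trim71-/- over control (vertical axis) for the pair (diamonds) and the 24 tested neighbours (circles, dark where called) by distance from the pair in kb (horizontal axis), with Tnrc6a on the left and Cas9 on the right. Ccr4 stands at 4.77 and 5.86, and no neighbour passes 1 in either panel.

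Ccr4 was looked at beside the cells and genes it is usually found with. Of 14 markers of T cells and other leukocytes, 5 were listed (Cd3e, Lck, Cd79a, Itgam and Cd68), and those not listed included Ptprc, Cd3d, Cd3g, Cd4, Cd8a, Foxp3 and Il2ra. The summed level of the listed 5 was 32.0 to 35.1 CPM in Tnrc6a Trim71-/- against 32.9 to 36.6 CPM in Tnrc6a control libraries, and 37.4 to 39.0 CPM in Cas9 Trim71-/- against 41.0 to 42.5 CPM in Cas9 control libraries. Most of the sum came from Lck and Cd68. Cd3e, a subunit of the T cell receptor complex, had 1.29 ± 0.178 CPM in Tnrc6a Trim71-/- against 0.907 ± 0.268 CPM in Tnrc6a control libraries (0.50, adjusted p = 0.17). It had 1.7 ± 0.412 CPM in Cas9 Trim71-/- against 1.43 ± 0.482 CPM in Cas9 control libraries (0.30, adjusted p = 0.406), and the groups overlapped in both constructs. The part of such cells in the Ccr4 values was not tested. Of 23 other chemokine receptor genes 2 were listed and tested, and neither of the 2 CCR4 ligand genes was listed. Cxcr4, the receptor for CXCL12, fell in Trim71-/- cells by 0.78 with Tnrc6a (2.45 ± 0.235 against 4.2 ± 0.483 CPM, adjusted p = 0.00033) and by 0.90 with Cas9 (1.36 ± 0.362 against 2.61 ± 0.371 CPM, adjusted p = 0.000612). Ackr3, the scavenging receptor for the same ligand, was at -0.29 with Tnrc6a (adjusted p = 0.148) and at 0.57 with Cas9 (adjusted p = 0.0226), a call lost without Cas9 Trim71-/- replicate 2 or any 1 of the Cas9 control libraries 1 and 3. Both were called higher with Tnrc6a than with Cas9, Cxcr4 by 0.81 and Ackr3 by 0.53 in Trim71-/- cells and by 0.69 and 1.39 in control cells. Of all genes tested, 32.0% were called higher in this way in Trim71-/- cells and 30.4% in control cells. The Ackr3 call in Trim71-/- cells was lost without Tnrc6a Trim71-/- replicate 3 (0.40).

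The paralogs differed little between genotypes, and no test compared one gene with another. With Tnrc6a, Trim3 and Trim71 were called lower in Trim71-/- cells, and no TRIM-NHL member was called higher, where 19.0% of all genes tested were called lower and 20.0% higher. With Cas9, Trim2 and Trim71 were called lower and Trim32 higher, where 19.1% of all genes were called lower and 17.1% higher. Each paralog was thus called in 1 construct and not in the other, and the test of that difference passed for Trim3 alone. In the interaction, 4.68% of all genes were called higher and 2.25% lower, a split of 958 to 461 that was 768 to 613 with relative log expression factors and 710 to 571 with DESeq2.

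Trim2 (ENSMUSG00000027993, chr3:84160439-84306877, minus strand) had 47.4, 47.7 and 40.7 CPM in Cas9 Trim71-/- libraries, against 50.7, 56.2 and 57.5 CPM in Cas9 control libraries. The groups did not overlap, and Trim2 fell by 0.27 (SE 0.06, adjusted p = 0.000325). With Tnrc6a it had 19.7, 19.0 and 20.2 CPM in Trim71-/- against 20.9, 21.4 and 21.9 CPM in control libraries, with no overlap and a difference of -0.12 (95% interval -0.27 to 0.02, adjusted p = 0.166). The genotype effects did not pass the test of a difference (0.15, 95% interval -0.04 to 0.34, adjusted p = 0.403).

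Trim3 (ENSMUSG00000036989, chr7:105604463-105633571, minus strand) had 17.3, 18.6 and 18.9 CPM in Tnrc6a Trim71-/- libraries, against 24.2, 24.1 and 21.9 CPM in Tnrc6a control libraries. It fell by 0.36 (SE 0.07, adjusted p = 9.73e-05), with no overlap. With Cas9 it had 15.1, 16.2 and 14.7 CPM in Trim71-/- against 14.9, 15.0 and 16.2 CPM in control libraries, and these groups overlapped throughout (95% interval of the log2 fold change -0.17 to 0.16, adjusted p = 0.981). The difference between the genotype effects was -0.36 (SE 0.11, adjusted p = 0.0364), but it was not called in 6 of the 12 fits that leave out 1 library: Cas9 Trim71-/- replicate 2 (-0.32), Cas9 control replicate 1 (-0.33) or 2 (-0.34), Tnrc6a Trim71-/- replicate 1 (-0.32), and Tnrc6a control replicate 1 or 2 (-0.37 each).

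Trim32 (ENSMUSG00000051675, chr4:65604986-65616238, plus strand) had 34.2, 34.04 and 32.1 CPM in Cas9 Trim71-/- libraries, against 27.4, 29.6 and 29.8 CPM in Cas9 control libraries. The groups did not overlap, and Trim32 rose by 0.21 (SE 0.06, adjusted p = 0.0038). With Tnrc6a it had 38.9, 39.5 and 38.3 CPM in Trim71-/- against 37.4, 37.9 and 38.0 CPM in control libraries, with no overlap and a difference of 0.04 (95% interval -0.07 to 0.16, adjusted p = 0.588). The test of a difference between the genotype effects gave -0.17 (95% interval -0.34 to -0.01, adjusted p = 0.234). Trim32 lies within Astn2 on the other strand and shares no exon base with it. The median genotype change over genes of at least 5 CPM on the chromosomes of these paralogs, 3, 7 and 4, lay between -0.04 and 0.02 in both constructs.

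**Figure D4:**
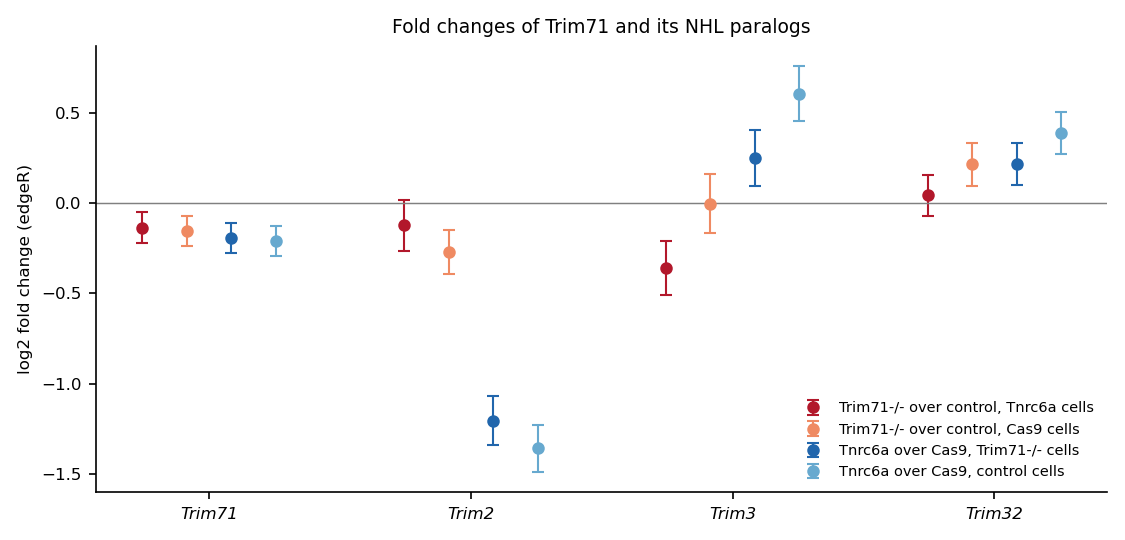
Log2 fold change (vertical axis, edgeR; bars are 95% intervals) of Trim71 and its NHL paralogs in 4 comparisons, 2 between genotypes and 2 between Tnrc6a and Cas9. Trim2 stands apart at -1.21 and -1.36 for Tnrc6a over Cas9, where Trim3 and Trim32 lie above 0.

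With Tnrc6a overexpression the 4 TRIM-NHL genes differed from Cas9 in opposite directions, each in the same direction in both genotypes. Trim2 fell most, by 1.21 in Trim71-/- cells (SE 0.07, adjusted p = 7.02e-20; 2.31-fold) and by 1.36 in control cells (SE 0.06, adjusted p = 3.94e-22; 2.56-fold). All Tnrc6a libraries held at most 21.9 CPM of Trim2, against at least 40.7 CPM in all Cas9 libraries. Trim3 rose by 0.25 in Trim71-/- cells (SE 0.08, adjusted p = 0.00516) and by 0.61 in control cells (SE 0.08, adjusted p = 3.49e-09). Trim32 rose by 0.22 in Trim71-/- cells (SE 0.06, adjusted p = 0.00112) and by 0.39 in control cells (SE 0.06, adjusted p = 1.93e-07). With the fall of Trim71, all 4 were called in both genotypes, 2 in each direction, and Ccr4 was called lower in Trim71-/- cells alone. Over all genes tested, 32.0% were called higher and 30.9% lower in Trim71-/- cells, and 30.4% higher and 33.1% lower in control cells, so a call by itself sets no gene apart here.

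Per length, Trim71 was the highest of the 5 genes in every group. In Tnrc6a Trim71-/- libraries its deposited RPKM averaged 25.8 ± 0.977, ahead of Trim32 at 12.04 ± 0.19, Ccr4 at 7.85 ± 0.497, Trim3 at 3.99 ± 0.187 and Trim2 at 0.994 ± 0.0312 (SD, n = 3). In Tnrc6a control libraries Trim71 had 28.3 ± 1.27 RPKM, Trim32 11.7 ± 0.0994, Trim3 5.12 ± 0.283, Trim2 1.08 ± 0.0249 and Ccr4 0.287 ± 0.0289. In Cas9 Trim71-/- libraries Trim71 had 29.5 ± 1.52 RPKM, Ccr4 13.2 ± 0.278, Trim32 10.3 ± 0.357, Trim3 3.35 ± 0.172 and Trim2 2.29 ± 0.199. In Cas9 control libraries Trim71 had 32.8 ± 1.52 RPKM, Trim32 8.94 ± 0.421, Trim3 3.36 ± 0.158, Trim2 2.77 ± 0.183 and Ccr4 0.228 ± 0.115. No neighbours in these orders overlapped over the 3 libraries. Ccr4 thus stood last in both control groups, behind Trim71 and Trim32 in Tnrc6a Trim71-/- and next to Trim71 in Cas9 Trim71-/- cells. The place of Trim2 depends on the length used: its deposited length of 19751 bases sums the exons of all its isoforms, while its longest coding transcript has 7428 bases. With the longest coding transcript as length Trim2 stood above Trim3 in Cas9 cells, at 6.09 against 5.08 RPKM in Trim71-/- and 7.37 against 5.09 RPKM in control libraries, and below it with Tnrc6a, at 2.64 against 6.05 RPKM in Trim71-/- and 2.88 against 7.76 RPKM in control libraries.

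Other genes with NHL repeats were set beside the members. Of Nhlrc1, Nhlrc2, Nhlrc3 and Nhlrc4, the first 3 were tested. None was called between genotypes with Tnrc6a (lowest adjusted p = 0.111), where 20.0% of all genes were called higher and 19.0% lower. With Cas9 these shares were 17.1% and 19.1%. With Cas9, Nhlrc1, which encodes the ubiquitin ligase malin, fell by 0.59 (3.18 ± 0.402 CPM in Trim71-/- against 4.75 ± 0.761 CPM in control libraries, adjusted p = 0.00229), and Nhlrc2 rose by 0.17 (adjusted p = 0.0207), a call lost without Cas9 control replicate 1 (0.13) or 2 (0.16). Nhlrc3 rose with Tnrc6a by 0.35 in Trim71-/- cells (adjusted p = 0.000455) and by 0.33 in control cells (adjusted p = 0.000722). Of all genes tested, 32.0% and 30.4% were called higher in these 2 comparisons. Nhlrc1 rose with Tnrc6a in Trim71-/- cells (0.40, adjusted p = 0.023), a call lost without Cas9 Trim71-/- replicate 1 (0.34) or 2 (0.37) or Tnrc6a Trim71-/- replicate 3 (0.31).

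Across the wider Trim family, whose members share the tripartite motif without NHL repeats, more genes rose than fell with Tnrc6a. Of 45 other tested Trim genes, 27 rose and 7 fell in Trim71-/- cells, where 32.0% of all genes rose and 30.9% fell, with a median log2 fold change of 0.43 against 0.02 over all genes. In control cells 23 rose and 8 fell, where 30.4% of all genes rose and 33.1% fell, with a median of 0.39 against -0.02. Trim2 lay below all of these in both genotypes. Trim12c rose by 2.29 (6.66 ± 0.52 CPM with Tnrc6a against 1.37 ± 0.402 CPM with Cas9, adjusted p = 2.42e-15) in Trim71-/- cells and by 1.92 (5.73 ± 0.541 against 1.52 ± 0.159 CPM, adjusted p = 4.54e-13) in control cells. Trim47 rose by 1.49 (adjusted p = 2.97e-10) and by 1.88 (adjusted p = 1.99e-10). Trim43a rose most, by 4.51 and 2.6, but its near-identical copies make the split of its reads uncertain. Between genotypes, 14 of the 45 were called higher and 8 lower with Tnrc6a, where 20.0% and 19.0% of all genes were (median 0.05 against 0.00 over all genes). With Cas9, 9 were called higher and 12 lower, where 17.1% and 19.1% of all genes were (median -0.01, as over all genes). Trim21, an intracellular antibody receptor, rose by 0.78 in Trim71-/- cells with Tnrc6a (9.49 ± 0.681 against 5.52 ± 0.375 CPM, adjusted p = 1.73e-06). Trim17 rose by 1.27 with Cas9 (4.64 ± 0.369 against 1.93 ± 0.362 CPM, adjusted p = 5.36e-08). Trim43a fell by 0.79 with Tnrc6a (2.81 ± 0.627 CPM in Trim71-/- against 4.86 ± 0.172 CPM in control libraries, adjusted p = 0.000364) and by 2.7 with Cas9 (0.122 ± 0.0745 against 0.825 ± 0.296 CPM, adjusted p = 4.9e-06). Its near-identical copy Trim43b fell by 0.96 (1.06 ± 0.108 against 2.07 ± 0.294 CPM, adjusted p = 0.00218) and by 2.31 (0.317 ± 0.232 against 1.6 ± 0.283 CPM, adjusted p = 4.55e-07), with the same uncertainty.

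**Figure D5:**
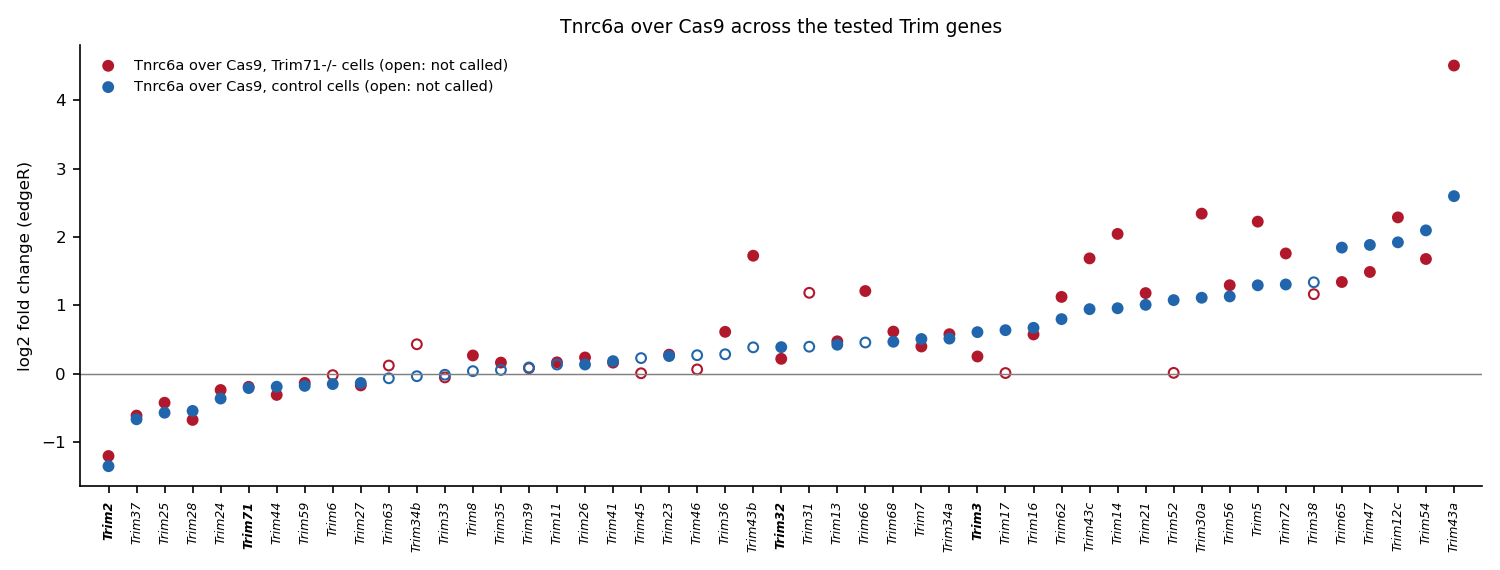
Log2 fold change of Tnrc6a over Cas9 (vertical axis) for each tested Trim gene, ordered by its value in control cells; red marks are Trim71-/- cells, blue marks control cells, open marks are not called, and Trim71 and its NHL paralogs are in bold. Trim2 is the lowest in both genotypes, at -1.21 and -1.36, and Trim43a the highest, at 4.51 and 2.6.

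A list of 17 genes of the Tnrc6, Argonaute, CCR4-NOT and Lin28 families with Upf1 was set beside Trim71 for silencing, and all were tested. Whether each of them works with TRIM71 was not tested here. With Tnrc6a 5 were called higher and 3 lower in Trim71-/- cells, where 20.0% and 19.0% of all genes were, and the counts were the same with Cas9, where 17.1% and 19.1% of all genes were. Of the 5, Cnot1, Cnot7 and Upf1 lie on chromosome 8, where the median over genes of at least 5 CPM was itself 0.51 higher in Trim71-/- cells with Tnrc6a and 0.49 with Cas9. Their values, 0.41, 0.61 and 0.52 with Tnrc6a and 0.53, 0.46 and 0.48 with Cas9, lay close to those medians. Elsewhere, Lin28a, which blocks let-7 maturation, fell by 0.91 with Tnrc6a (62.9 ± 2 CPM in Trim71-/- against 118 ± 5.46 CPM in control libraries, adjusted p = 1.37e-21) and by 0.69 with Cas9 (199.9 ± 5.92 against 322 ± 9.2 CPM, adjusted p = 2.19e-18). Its paralog Lin28b rose, by 0.76 (26.4 ± 1.68 against 15.6 ± 0.596 CPM, adjusted p = 3.81e-12) and by 0.91 (31.4 ± 1.43 against 16.8 ± 0.412 CPM, adjusted p = 3.48e-14). Under Tnrc6a overexpression 7 of the 17 rose and 6 fell in Trim71-/- cells (32.0% and 30.9% of all genes), and 7 rose and 8 fell in control cells (30.4% and 33.1% of all genes), Tnrc6a itself included. Lin28a fell by 1.67 in Trim71-/- cells (adjusted p = 1.45e-31) and by 1.45 in control cells (adjusted p = 3.03e-30). Ago1 fell by 0.67 and 0.73, and Ago4, at 2.45 ± 0.247 against 0.692 ± 0.216 CPM in Trim71-/- cells, rose by 1.78 there and by 1.68 in control cells.

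The genes most like each member over the 12 libraries were taken by Pearson's r of log2 CPM among 16740 genes of at least 1 CPM; the libraries share 4 group means, so high values are frequent. Usp10 (r = 0.994), Abcd3 (0.991) and Vdac3 (0.99) came closest to Ccr4. Usp10 and Vdac3 lie on chromosome 8, and none of these 3 approached its size of difference: Usp10 averaged 267.5 ± 5.24 CPM in Tnrc6a Trim71-/- against 189.9 ± 3.3 CPM in Tnrc6a control libraries. Closest to Trim71 were Adgrg6 (0.974), Ttn (0.97) and Arid1a (0.97), to Trim2 Myrf, Slc7a3 and Ankrd6 (0.994 each), to Trim3 Eif4a3l2 (0.98), Msx2 (0.976) and BC021767 (0.973), and to Trim32 Sec24d (0.985), Vps39 (0.984) and Ptpn9 (0.983). No member was among the 3 closest genes of another. Among the members themselves r was -0.53 between Trim71 and Ccr4, 0.821 between Trim71 and Trim2, and -0.909 between Trim2 and Trim32.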

How the data were processed

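The authors deposited raw counts per gene for 12 libraries, which were tested here, and RPKM values per deposited gene length, which were used for levels across genes. Per the labels' protocols the libraries were stranded TruSeq total RNA, and the submitters' processing notes name bcl2fastq 2.20, STAR 2.7.3a and the builds GRCm38 and mm10. The deposited gene length is labelled quasr. How reads were counted per gene was otherwise not stated by any source used here. The deposited length equalled the union of GENCODE M21 exons for 98.4% of genes.

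Counts were filtered by group (filterByExpr), scaled by TMM and fitted over all 12 libraries with edgeR 4.0.16 (robust quasi-likelihood, two-sided, Benjamini-Hochberg over 20486 genes, threshold 0.05) in R 4.3.3. The procedure was tested on simulated data in which few genes were changed, up and down alike, in a single group. That setting does not check the scaling where many genes differ, as with Tnrc6a here. Alternatives used DESeq2 1.42.0 and limma 3.58.1. Library totals of at least 20758151 counts set the precision. Members and lists were chosen with earlier results of these data known. Named were the members, up to 4 called genes per list and comparison with the largest change and a mean of at least 1 CPM (of which a selection is printed), the 3 nearest tested neighbours on each side, and the 3 genes closest in pattern. Same-numbered replicates did not deviate together (12 correlations, -0.01 to 0.02), so they were not paired. Protein sequences were not used here.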

Additional observations from a re-analysis of the deposited data

Results flagged for a closer look

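The genotype effect on Trim3 differed between Tnrc6a and Cas9 cells by the interaction test (-0.36 on the log2 scale, edgeR adjusted p = 0.0364), Trim3 being lower in 3 of 3 Tnrc6a Trim71-/- libraries than in any Tnrc6a control library while the Cas9 groups overlapped. Among the genes set beside the members, cell type markers aside, the same test was passed by Trim43a (1.91, adjusted p = 0.0131), Trim8 (0.23, adjusted p = 0.011), Tnrc6c (0.34, adjusted p = 0.000414), Lin28a (-0.22, adjusted p = 0.0117) and Ackr3 (-0.86, adjusted p = 0.0304). These are 2 of 45 other Trim genes, 2 of 17 genes listed for silencing and 1 of 2 chemokine receptor genes. Over all genes, 4.68% were called higher and 2.25% lower in this test. Of the markers, 6 of 10 for pluripotency and 2 of 5 neural ones were called higher. Of the 6 endoderm markers, 1 was called higher and 1 lower. The Tnrc6c call held in each fit that left out 1 library. That of Trim43a was lost without Cas9 Trim71-/- replicate 1 (1.57) or Cas9 control replicate 2 (1.63), and that of Trim8 without Tnrc6a Trim71-/- replicate 2 (0.17) or Tnrc6a control replicate 1 (0.19) or 2 (0.20). That of Lin28a was lost without Tnrc6a Trim71-/- replicate 3 (-0.20), and that of Ackr3 in 5 of the 12 such fits (-0.86 to -0.70).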

How the results depend on the processing

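Scaling by relative log expression or upper quartile, no filter, a filter of 1 CPM in 6 libraries, limma-voom, DESeq2, fits of only the groups compared and a replicate block changed no call of a member in the comparisons tested. With 1 library left out, Trim71 between genotypes with Tnrc6a ranged from -0.19 to -0.10, the Tnrc6a effect on Ccr4 in control cells from -0.045 to 0.75, and the Trim3 interaction from -0.41 to -0.32. These lost or gained a call, as given with each result, and no other tested member value did. The Ccr4 genotype values and interaction carry no test and kept their direction. The replicate number did not pair libraries, and with it as a block 7266, 7851, 12901, 12789 and 1335 genes were called in the 5 comparisons (Trim71-/- with Cas9, with Tnrc6a, Tnrc6a in control, in Trim71-/- cells, interaction), against 7403, 8005, 13007, 12884 and 1419 without it. The Tnrc6a over Cas9 fold of the Ccr4 to Trim71 ratio in Trim71-/- cells, 0.682, lay between 0.656 and 0.704 with 1 library left out. Another scaling or gene length cannot change this fold, as the ratio is taken within each library. List counts were recomputed only with DESeq2 and with 1 library left out. Of these 780 counts, 36 moved past 1.5 times, by at most 4 genes. The 780 include the list of CCR4 ligands, of which no gene was tested, so its counts could not move. Of 87 results for other named genes, 68 kept their side of the threshold without each library. The level with the longest transcript as length was tried after seeing the data. Depth limits Ccr4 in control cells, at 8 to 28 reads.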
